A study of Mus musculus with 5 samples.

Results

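Potassium channel subunits are encoded by genes whose symbols start with Kcn, and the deposited table of hearts from diabetic and non-diabetic mice held 85 of them among its 17228 genes. The 60 described here had at least 10 read counts summed over the 5 libraries. They comprised 25 voltage-gated channel subunits, 12 accessory subunits, 10 inward rectifiers, 7 calcium- or sodium-activated channels and 6 two-pore channels, the calcium- or sodium-activated ones being kept apart from the voltage-gated ones. The other 25 entries fell below 10 counts, 11 of them with no count, and 1 of the 25, Kcnrg, does not encode a channel subunit. Kcnh1 with 10 counts and Kcnj10 with 11 counts lay just inside the limit, and Kcnmb4 and Kcnrg with 9 counts each lay just outside it.

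RNA was taken from whole hearts of mice aged 6 months, enriched for polyadenylated RNA and sequenced. The WT group held 1 female and 1 male library of non-diabetic mice labelled strain C57BL. The db/db group held 2 female libraries and 1 male library of diabetic mice labelled strain C57BL with the genotype KsJ-Lepr db/Lepr db, which is homozygous for a mutation of the leptin receptor gene Lepr. The mutation is present in every cell, and db/db mice are obese as well as diabetic. The KsJ background was named for the db/db mice alone, so the background, the Lepr mutation and diabetes cannot be told apart. The growth description speaks of males, whereas the sample labels give 3 females and 2 males. The labels do not say that each library came from an animal of its own, so p-values measure the spread between these libraries, which may be technical.

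In a heart muscle cell, outward potassium currents end each action potential and inward rectifier currents hold the resting potential between beats. Voltage-gated alpha subunits assemble as tetramers that open on depolarization, inward rectifiers conduct best near the resting potential, two-pore channels give a steady background current, and accessory subunits alter the trafficking and gating of the pore-forming ones. A smaller repolarizing current is a known feature of the diabetic rodent heart, where it has been studied mainly through the fast transient outward current carried by Kv4 channels.

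The libraries held 8356090 to 10381329 counts, and the 60 members took 0.151% to 0.184% of them. Where no read was counted, up to 3 counts remain possible, or 0.289 to 0.359 CPM (counts relative to library size), a limit for counting error only. Lepr had 37 and 14 counts in the WT libraries and 3, 7 and 5 in the db/db libraries. The libraries differed in how counts moved with gene length. The 1050 shortest genes with a fitted trend lay a median 0.28 below their mean over libraries in the WT female and 0.28 above it in the db/db male on the log2 CPM scale, with the other libraries within 0.02 of it. The 5 heart muscle markers were Myh6, Myl2, Tnnt2, Tnni3 and Myl3, none with an edgeR adjusted p under 0.05 for db/db against WT. Their summed CPM was 59007 and 65641 in WT and ran from 73199 to 96421 in db/db. Among the 5 atrial markers, Nppa held 2458 to 4564 counts, Sln was at 0 in 4 libraries with 12 counts in the db/db male, and Myl7 had 2 to 8 counts in 4 libraries and 38 in the db/db male. In whole tissue, fewer cells of a type and less RNA per cell cannot be told apart.

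A few genes held most of the potassium channel message. Levels are compared between genes as FPKM, the authors' fragments per kilobase scaled to library size, which corrects for length. Kcnk3, a two-pore channel of the acid-sensitive TASK group, was highest with 134.6 and 118.7 FPKM in the WT female and male and 152.6, 139.3 and 173.2 FPKM in db/db female 1, female 2 and the male. It was followed by Kcng2, a modifier subunit that is silent alone and assembles with other voltage-gated subunits. Next came Kcnip2, the calcium-binding partner of Kv4 channels, and Kcnj11, the pore of the ATP-sensitive channel of the muscle cell surface. These 4 genes together took 68.7% to 70.3% of the members' summed FPKM in every library.

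Mean levels reached 100 FPKM in 2 members, 10 FPKM in 9 and 1 FPKM in 28, while 24 members stayed under 0.5 FPKM. The FPKM range of Kcnk3 over the 5 libraries did not overlap that of Kcng2, and the range of Kcnj11 did not overlap that of Kcnh2, the pore of the rapid delayed rectifier and the fifth in the order. Each of the other neighbours among the first 20 overlapped in range. Within libraries some of them kept their order, such as Kcnip2 above Kcnj11 in all 5. Others changed it, such as Kcnj8, which was above Kcna5 in 2 of the 5 libraries. Kcnj8, Kcna5, Kcnq1, Kcnh6 and Kcnj3 completed the first 10.

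**Figure D1:**
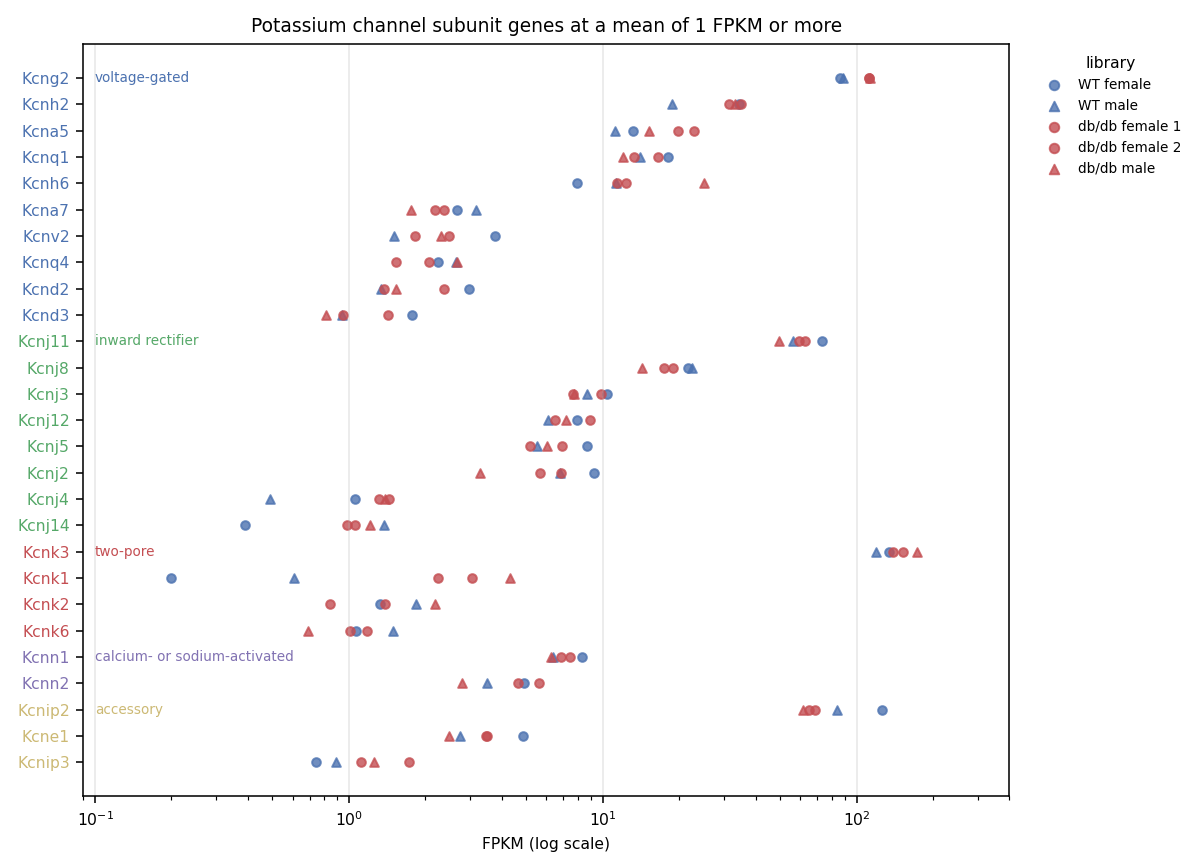
FPKM on a log scale of 27 of the 28 potassium channel genes with a mean of at least 1 FPKM, grouped by channel class, 1 point per library (circles female, triangles male, blue WT, red db/db). Kcnk3, Kcng2, Kcnip2 and Kcnj11 lie to the right of all others, and the WT points of Kcnk1 lie to the left of its db/db points.

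The main comparison asked which genes differed in the diabetic heart. Of the 60 members, 45 passed the filter on low counts and were tested with edgeR, and a gene was called at a Benjamini-Hochberg adjusted p under 0.05 over all 12540 tested genes. Kcnk1 and Kcna5 were called, 2 of 45, and both were higher in db/db. In the background 1.03% of all tested genes were called, 0.67% as higher and 0.359% as lower in db/db. Before adjustment 10 of 45 members had a p under 0.05, 8 higher and 2 lower, against 12.9% of all tested genes. The CPM of the WT and db/db libraries did not overlap for 14 of 45 members, 11 higher and 3 lower, against 31.6% of all tested genes. The median log2 fold change was 0.07 over the tested members, 24 positive and 21 negative, and -0.01 over all tested genes. The split of signs moved with the processing. It was 28 positive and 17 negative with an offset for gene length, and 20 positive and 25 negative with library totals as scaling.

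**Figure D2:**
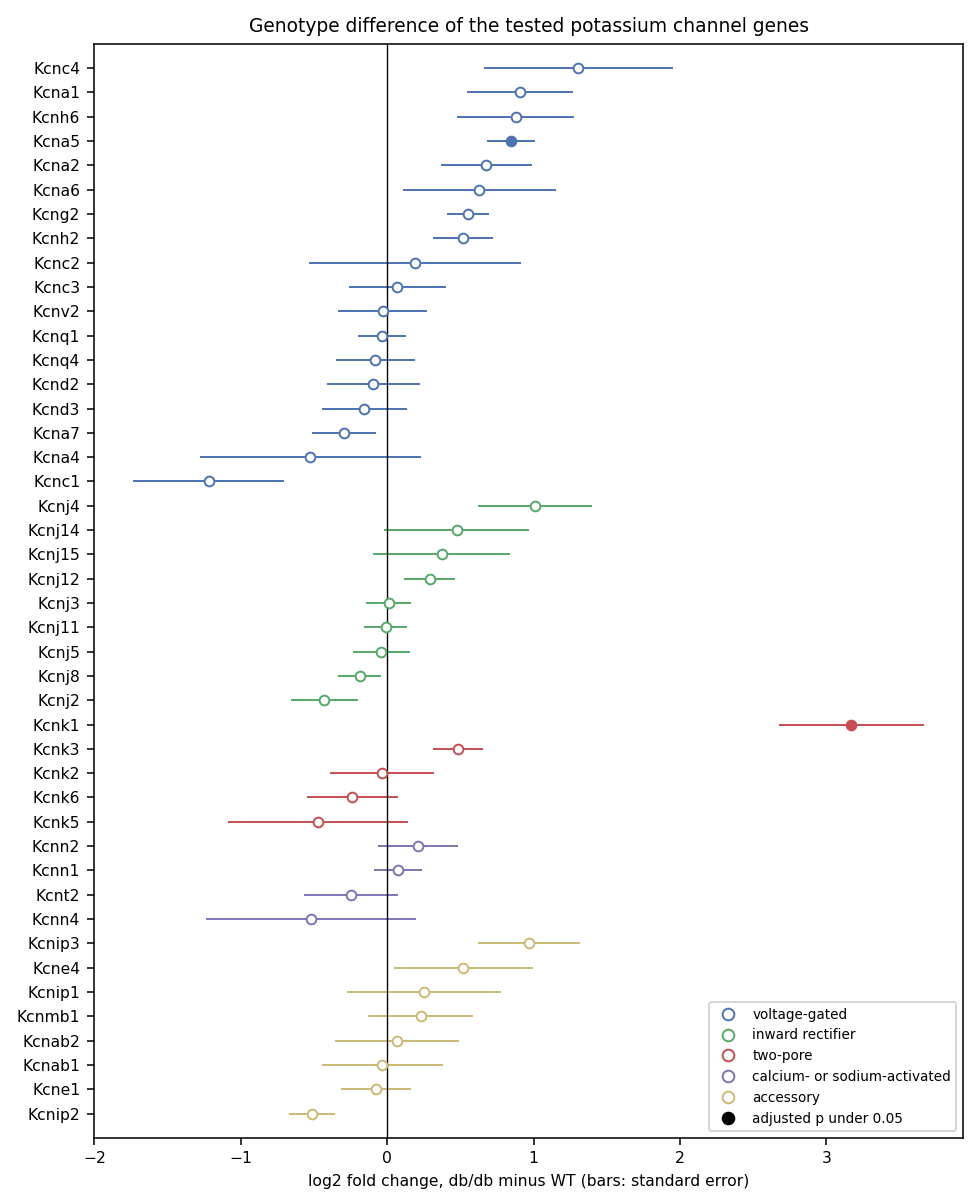
log2 fold change of db/db minus WT for 44 of the 45 tested members, sorted within channel class, with bars of 1 standard error (SE) and filled points for an adjusted p under 0.05. Kcnk1 at 3.17 and Kcna5 at 0.85 are the filled points, and most of the others lie within 1 of 0.

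Kcnk1 showed the largest fold change of the 45 tested members. It encodes a two-pore channel of the TWIK group, a weak background potassium conductance found in heart and kidney. It lies on chromosome 8 from 125965398 to 126046808 (GRCm38.p6, plus strand). Kcnk1 had 4 counts in the WT female and 12 in the WT male, and 50, 72 and 80 counts in db/db female 1, female 2 and the male. All 3 db/db libraries lay above both WT libraries, and the db/db male was highest. Scaled with TMM factors, the means were 0.848 ± 0.649 CPM in WT (SD, n = 2) and 7.65 ± 2.89 CPM in db/db (SD, n = 3). Kcnk1 rose by a log2 fold change of 3.17 (SE 0.49, edgeR adjusted p = 0.0127). The level was 15.6-fold higher in db/db than in WT among females and 8.26-fold higher among males, and in the interaction model this difference had an edgeR adjusted p of 0.851. The call was lost without the WT female (log2 fold change 2.52, edgeR adjusted p = 0.162), and without the WT male the value was 4.24 (edgeR adjusted p = 0.0235). With 3.2 FPKM in db/db on average, Kcnk1 remained far below Kcnk3 in every library, the ratio of Kcnk3 to Kcnk1 FPKM being 673 and 195 in the WT libraries and 68.1, 45.5 and 40.3 in the db/db libraries.

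Kcna5 was the other called member. It encodes the Kv1 pore of the ultrarapid delayed rectifier, which in the mouse contributes to repolarization of the ventricle as well as the atrium. Kcna5 lies on chromosome 6 from 126532551 to 126535555 (GRCm38.p6, minus strand). Its counts were 351 and 289 in the WT female and male and 668, 598 and 371 in db/db female 1, female 2 and the male. After scaling, the values were 34.1 and 31.5 CPM in WT and 68.1, 58.6 and 50.0 CPM in db/db. The groups did not overlap, and the db/db male was the lowest of the 3 db/db libraries. Kcna5 rose by a log2 fold change of 0.85 (SE 0.16, edgeR adjusted p = 0.0325). The means were 32.8 ± 1.87 CPM in WT (SD, n = 2) and 58.9 ± 9.01 CPM in db/db (SD, n = 3). The call was lost on leaving out the WT female (edgeR adjusted p = 0.239), the WT male (0.212), db/db female 1 (0.171) or db/db female 2 (0.0564), and held without the db/db male (0.000957), while the log2 fold change stayed between 0.73 and 0.95. With only library totals as scaling it was 0.67 (edgeR adjusted p = 0.13).

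The RefSeq windows upstream of the annotated starts of both called genes are shown because they are the sequences in which regulators of these messages would be sought. Each window holds the 250 bases before the start, read in the direction of the gene, with capitals marking CG dinucleotides (GRCm38.p6).
Kcnk1, chr8:125994852-125995101, plus strand: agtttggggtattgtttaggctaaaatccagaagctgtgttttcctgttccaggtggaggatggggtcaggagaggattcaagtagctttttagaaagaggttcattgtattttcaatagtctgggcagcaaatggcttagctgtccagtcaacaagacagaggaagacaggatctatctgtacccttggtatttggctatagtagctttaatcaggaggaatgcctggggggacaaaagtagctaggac
Kcna5, chr6:126535556-126535805, minus strand: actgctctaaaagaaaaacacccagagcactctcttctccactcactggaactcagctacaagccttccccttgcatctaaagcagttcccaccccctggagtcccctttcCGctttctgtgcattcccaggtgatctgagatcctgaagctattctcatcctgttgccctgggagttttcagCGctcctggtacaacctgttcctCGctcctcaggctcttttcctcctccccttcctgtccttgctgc
The Kcnk1 window was 44.4% G and C with 0 CG dinucleotides, and the Kcna5 window was 53.2% G and C with 3. The median was 52.4% and 6 CG dinucleotides over all 32851 windows of the RefSeq table, and 58.8% and 8 over the 60 windows that 43 of the members had. Both windows were searched on both strands for the E-box CACGTG (in 6.02% of all windows), the steroid receptor half-site AGAACA (16.1%), the ROR half-site AGGTCA (14%) and the TATA box TATAAA (12.4%). None of these letters occurred in either window, which describes the windows only. The table's Kcnk1 entry starts upstream of this RefSeq start, so other start sites were not covered.

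Among the remaining voltage-gated subunits none passed the threshold. The class had 19 tested members with 1 called, Kcna5, and a median log2 fold change of 0.07 (10 positive, 9 negative). Kcng2, the modifier subunit described above, had 195 and 218 CPM in WT and 290, 291 and 326 CPM in db/db. The db/db libraries all lay above WT and close together. Its log2 fold change was 0.55 (SE 0.15) and missed the threshold in edgeR (adjusted p = 0.124), whereas DESeq2 gave an adjusted p of 0.0265. In the authors' deposited table, 3 of the 60 members had a q under 0.05, against 1.35% of all genes with a q: Kcnk1 (log2 fold change 3.20, q = 3.41e-06), Kcna5 (0.86, q = 0.00235) and Kcng2 (0.56, q = 0.0227).

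The Kv4 pores of the fast transient outward current were low and variable. Kcnd2 had 2.97 and 1.34 FPKM in WT and 1.37, 2.37 and 1.53 FPKM in db/db. Its log2 fold change, taken from TMM-scaled counts, was -0.10 (SE 0.32, edgeR adjusted p = 0.924). Kcnd3 had 1.77 and 0.94 FPKM in WT and 1.43, 0.95 and 0.81 FPKM in db/db, and its TMM-scaled counts gave -0.16 (SE 0.29, edgeR adjusted p = 0.859). With limma on log2(FPKM + 0.1) the log2 fold changes were -0.22 for Kcnd2 and -0.30 for Kcnd3. For both genes the WT female was highest and the groups overlapped. Kcna4, the pore of the slowly recovering transient outward current, had 12 and 9 counts in WT and 9, 12 and 0 in db/db, and its log2 fold change of -0.53 had an SE of 0.75 (edgeR adjusted p = 0.804). The 0 in the db/db male allows up to 0.359 CPM before TMM scaling. The 4 other libraries had 0.917 to 1.18 TMM-scaled CPM. In counts both db/db females lay in the range of WT.

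Both delayed rectifier pores of the slow and rapid kind were well detected. Kcnq1, the slow delayed rectifier pore, had 44.1 and 36.4 CPM in WT and 36.5, 45.2 and 36.1 CPM in db/db, overlapping and with a log2 fold change of -0.04 (SE 0.16, edgeR adjusted p = 0.946). Kcnh2, the rapid delayed rectifier pore, had 98.1 and 56.7 CPM in WT and 114, 101 and 118 CPM in db/db. Its db/db libraries lay just above the WT female and far above the WT male, and the log2 fold change was 0.52 (SE 0.20, edgeR adjusted p = 0.328). Kcnh6, a relative of Kcnh2 in the erg group, had 30.5 and 43.1 CPM in WT and 49.8, 46.2 and 108 CPM in db/db. The db/db male stood above the 4 other libraries, and the log2 fold change of 0.88 had an SE of 0.40 (edgeR adjusted p = 0.409). The remaining members of the class with an unadjusted p under 0.05 were Kcna1 (log2 fold change 0.91, edgeR adjusted p = 0.327) and Kcnc1 (log2 fold change -1.22, edgeR adjusted p = 0.356), both under 0.5 FPKM on average.

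**Figure D3:**
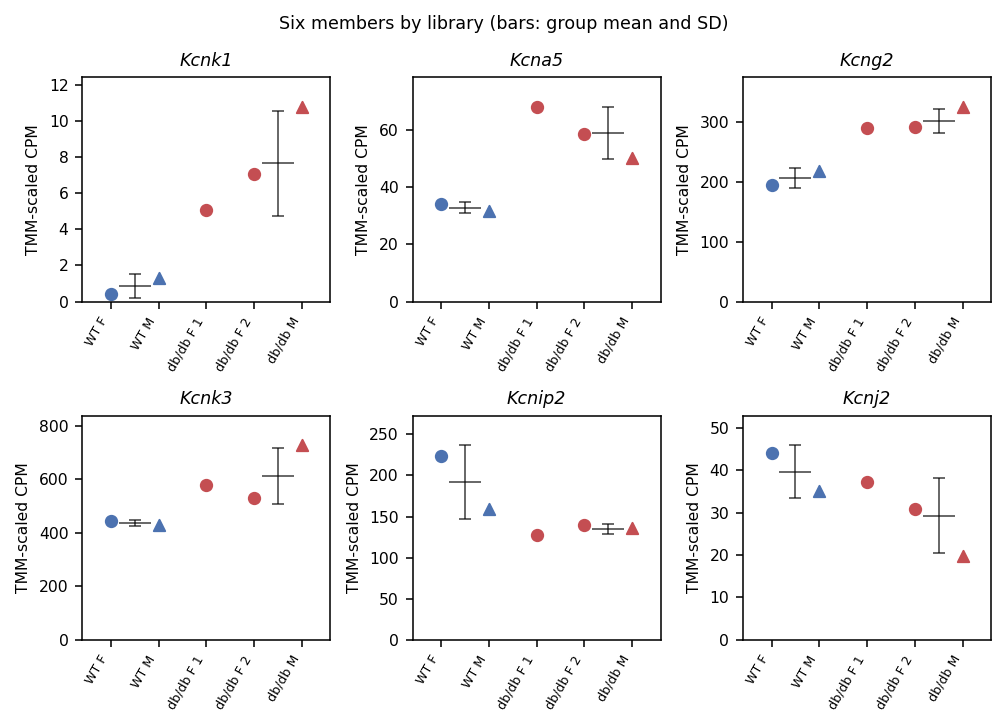
TMM-scaled CPM of 6 members in each library (circles female, triangles male, blue WT, red db/db), with bars for the group mean and SD. For Kcnk1, Kcna5, Kcng2 and Kcnk3 the 3 db/db points lie above both WT points, for Kcnip2 they lie below both, and for Kcnj2 the groups overlap.

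No inward rectifier passed the threshold. Of 9 tested, edgeR, DESeq2 and limma-voom each called 0, and 1 had an unadjusted edgeR p under 0.05. Their median log2 fold change was 0.01 (5 positive, 4 negative). Kcnj11, the ATP-sensitive pore of heart muscle, had 175 and 143 CPM in WT and 159, 168 and 147 CPM in db/db. The groups overlapped fully, with a log2 fold change of -0.01 (SE 0.15, edgeR adjusted p = 0.988). Kcnj8, the ATP-sensitive pore typical of smooth muscle and pericytes, had 40.9 and 46.5 CPM in WT and 38.1, 41.6 and 35.2 CPM in db/db, with a log2 fold change of -0.19 (SE 0.15, edgeR adjusted p = 0.609). The summed CPM of 6 smooth muscle and pericyte markers was 919 and 977 in WT and ran from 836 to 913 in db/db. Rgs5 gave 411 to 586 CPM of that sum. Of the 6 markers, 3 had positive log2 fold changes at an unadjusted edgeR p under 0.05, against 12.9% of all tested genes. These were Cnn1 (0.82), Myh11 (0.67) and Tagln (0.61), none of them called. The other 3 had negative log2 fold changes at an unadjusted edgeR p above 0.05, Acta2 (-0.29), Pdgfrb (-0.25) and Rgs5 (-0.21). The CPM of the groups did not overlap for Myh11, higher in db/db, and for Rgs5 and Pdgfrb, lower in db/db. The part of these cells in the Kcnj8 values was not tested.

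The classical inward rectifier current of the ventricle is carried by Kcnj2 and Kcnj12, with Kcnj4 as a further relative. Kcnj2 had 44.1 and 35.2 CPM in WT and 37.2, 30.9 and 19.8 CPM in db/db. The db/db male was lowest and db/db female 1 lay between both WT libraries, with a log2 fold change of -0.43 (SE 0.23, edgeR adjusted p = 0.444). Kcnj12 had 28.9 and 24.4 CPM in WT and 37.3, 27.4 and 33.2 CPM in db/db, with a log2 fold change of 0.29 (SE 0.17, edgeR adjusted p = 0.497). The FPKM ratio of Kcnj2 to Kcnj12 was 1.17 and 1.12 in WT and 0.764, 0.868 and 0.456 in db/db, so Kcnj2 was the higher of the pair in both WT libraries and the lower in all 3 db/db libraries. Kcnj4 had 20 and 11 counts in WT and 27, 33 and 27 in db/db, the groups not overlapping, with a log2 fold change of 1.01 (SE 0.39, edgeR adjusted p = 0.313). The Kcnj4 entry overlaps Ddx17 and Kdelr3 in the table, and its counts are uncertain to the extent that reads were shared. As deposited, the Kcnj4 counts were whole in all 5 libraries.

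Kcnj3 and Kcnj5 form the acetylcholine-activated channel of the atrium and the nodes. Kcnj3 had 41.8 and 37.8 CPM in WT and 35.6, 44.7 and 40.1 CPM in db/db, with a log2 fold change of 0.01 (SE 0.15, edgeR adjusted p = 0.987). Kcnj5 had 33.3 and 23.3 CPM in WT and 22.9, 30.6 and 29.4 CPM in db/db, with a log2 fold change of -0.04 (SE 0.19, edgeR adjusted p = 0.95). Both genes overlapped between the groups, and their FPKM ratio stayed between 1.20 and 1.56 in the 5 libraries. The part of atrial and nodal tissue in the Kcnj3 and Kcnj5 values was not tested.

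The two-pore class split by gene. Of 5 tested members 1 was called, Kcnk1, and the median log2 fold change was -0.03 (2 positive, 3 negative). Kcnk3, the most abundant member of all, had 445 and 428 CPM in WT and 577, 529 and 729 CPM in db/db. The db/db libraries all lay above WT and the db/db male stood highest, with a log2 fold change of 0.49 (SE 0.17, edgeR adjusted p = 0.272). Of the 5 atrial markers, Myl7, Sln and Myl4 were highest in the db/db male, Nppa had 349 CPM there against 401 and 497 CPM in WT, and Bmp10 was at 0 there. The part of atrial tissue in the Kcnk3 values was not tested. Without that library the log2 fold change was 0.34 (edgeR adjusted p = 0.298). Kcnk2, the stretch-sensitive TREK channel, had 4.37 and 7.51 CPM in WT and 5.09, 3.92 and 8.63 CPM in db/db, overlapping, with a log2 fold change of -0.03 (SE 0.35, edgeR adjusted p = 0.979). The Kcnk2 entry lies inside the span given for Rcor3, which had 159 to 221 counts per library, against 40 to 69 for Kcnk2.

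Calcium- and sodium-activated channels were low, and of 4 tested members edgeR, DESeq2 and limma-voom each called 0, with 0 at an unadjusted edgeR p under 0.05. Kcnn2, a small-conductance calcium-activated channel, had 9.72 and 6.97 CPM in WT and 9.58, 12.4 and 6.74 CPM in db/db, with a log2 fold change of 0.21 (SE 0.27, edgeR adjusted p = 0.783). The male library was the lower one in each genotype. Kcnt2, a sodium-activated channel, had 4.67 and 3.48 CPM in WT and 3.26, 2.74 and 4.45 CPM in db/db, with a log2 fold change of -0.25 (SE 0.32, edgeR adjusted p = 0.783). Its entry, with 28 to 48 counts per library, also lies inside the span given for Rcor3. Kcnma1, the large-conductance calcium-activated channel of smooth muscle, had 3, 6, 3, 2 and 4 counts in the 5 libraries and was not tested.

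Accessory subunits were dominated by Kcnip2, which raises the surface density and speeds the recovery of Kv4 channels. Of 8 tested members edgeR, DESeq2 and limma-voom each called 0, and 2 had an unadjusted edgeR p under 0.05, 1 in each direction. Kcnip2 lies on chromosome 19 from 45792346 to 45816432 (GRCm38.p6). It had 224 and 160 CPM in the WT female and male and 128, 140 and 136 CPM in db/db female 1, female 2 and the male. The db/db libraries lay close together below both WT libraries, which differed more from each other than the db/db libraries did. The log2 fold change was -0.51 (SE 0.16, edgeR adjusted p = 0.21), and without the WT female it was -0.25 (edgeR adjusted p = 0.979). The table gives Kcnip2 inside the span of Armh3, which had 189 to 332 counts per library, against 1006 to 2305 for Kcnip2.

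Kcnip3, a relative of Kcnip2 that is also known as a calcium-dependent transcriptional repressor, had 18 and 22 counts in WT and 48, 33 and 30 in db/db. The groups did not overlap, with a log2 fold change of 0.97 (SE 0.35, edgeR adjusted p = 0.278). Kcne1, the partner of Kcnq1 in the slow delayed rectifier, had 13.6 and 8.39 CPM in WT and 11.2, 11.2 and 8.90 CPM in db/db. The groups overlapped, with a log2 fold change of -0.08 (SE 0.24, edgeR adjusted p = 0.92), and the FPKM ratio of Kcnq1 to Kcne1 stayed between 3.73 and 5.12.

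As a share of the members' summed FPKM, accessory subunits took 22.7% and 18.5% in WT and 13.2%, 13.9% and 12.4% in db/db. Kcnip2 alone made up 125.9 of the 136.8 FPKM of accessory subunits in the WT female. Voltage-gated subunits took 30.1% and 32.4% in WT and 37.6%, 37.3% and 37.7% in db/db, and two-pore channels took 22.8% and 25.0% in WT and 27.9%, 26.0% and 32.0% in db/db. Inward rectifiers took 22.0% and 21.8% in WT and 19.1%, 20.3% and 16.1% in db/db. The WT and db/db ranges did not overlap for these 4 classes. They are parts of 1 total, so they are not independent, and they follow the few most abundant genes. The sums themselves, 603.7 and 494.6 FPKM in WT and 565.4, 557.5 and 565.2 FPKM in db/db, overlapped.

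**Figure D4:**
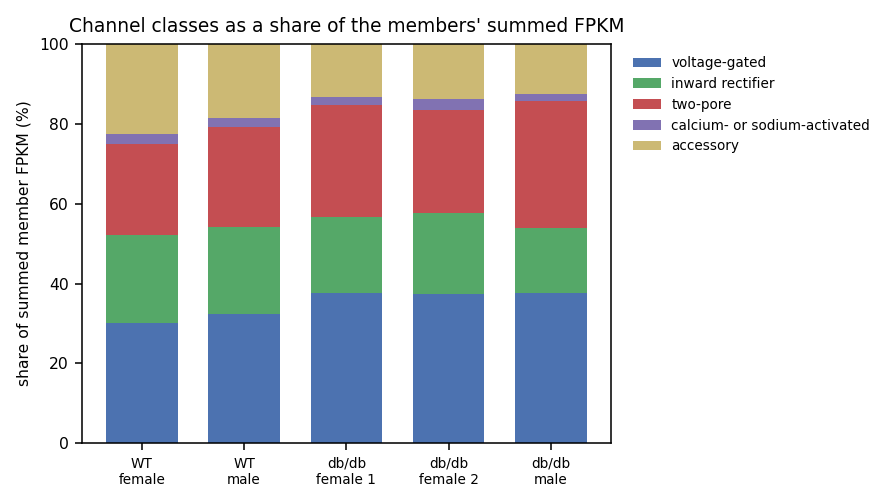
Share of the members' summed FPKM held by each of the 5 channel classes, in percent, stacked for each of the 5 libraries. The accessory part at the top is larger in the WT libraries (22.7% and 18.5%) than in the db/db libraries (12.4% to 13.9%), and the voltage-gated part at the bottom is smaller.

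With sex added to the model as a covariate, 7 of 45 members were called, against 6.63% of all tested genes. Beside Kcnk1 and Kcna5 they were Kcnh6 (log2 fold change 0.95, edgeR adjusted p = 0.00421), Kcng2 (0.58, 0.00566), Kcnip2 (-0.53, 0.0233), Kcnk3 (0.50, 0.0245) and Kcnj2 (-0.55, 0.0468), where the first value is the log2 fold change and the second the edgeR adjusted p. Kcnip2 and Kcnj2 were the lower ones in db/db. The signs were those of the model without sex for all 7. The call of Kcnj2 was lost when the gene length offset was added to this model (log2 fold change -0.44, edgeR adjusted p = 0.141).

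The comparison of males with females, adjusted for genotype, called 1 of 45 members, Kcnh6. In the background 1.4% of all tested genes were called and 1.23% were called as higher in males. Kcnh6, on chromosome 11 from 106007993 to 106035595 (GRCm38.p6), had 30.5, 49.8 and 46.2 CPM in the WT female and the db/db females and 43.1 and 108 CPM in the WT and db/db males. The male was the higher library in each genotype, the WT male lay below both db/db females, and the db/db male stood far above the rest. Kcnh6 rose in males by a log2 fold change of 0.90 (SE 0.15, edgeR adjusted p = 0.019). Without the db/db male it was 0.49 (edgeR adjusted p = 0.315), and without db/db female 2 it was 0.82 (edgeR adjusted p = 0.0646). With the offset for gene length the call held (log2 fold change 0.97, edgeR adjusted p = 0.0112). The deposited estimated counts of Kcnh6 were fractional in all 5 libraries, so its values are uncertain to the extent that reads were shared with other genes.

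Before adjustment 9 of 45 members had a p under 0.05 for sex, Kcnh6 included, against 14.9% of all tested genes. Kcnk2 had 4.37, 5.09 and 3.92 CPM in the females and 7.51 and 8.63 CPM in the males, which did not overlap, with a log2 fold change of 0.87 (SE 0.25, edgeR adjusted p = 0.106). Kcnj2 was lower in the male of each genotype, with a log2 fold change of -0.57 (SE 0.16, edgeR adjusted p = 0.0941). Kcnn2, Kcne1 and Kcnd3 each had both males below all 3 females, with log2 fold changes of -0.60, -0.50 and -0.59 and edgeR adjusted p values of 0.218, 0.259 and 0.29.

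The interaction of genotype and sex asks whether the genotype difference was unequal in females and males, and its 1 residual degree of freedom comes from the 2 db/db females. It called 2 of 45 members, Kcnh2 and Kcnv2, against 1.16% of all tested genes. Kcnh2, on chromosome 5 from 24319585 to 24351681 (GRCm38.p6), had a db/db to WT ratio of 1.10 in females and 2.08 in males, a difference of 0.92 on the log2 scale (SE 0.23, edgeR adjusted p = 0.012). The WT male was the low library and the 4 others lay between 98.1 and 118 CPM. Kcnv2, another silent modifier subunit, named here after its values were seen, had 15.8 CPM in the WT female and 7.08 CPM in the WT male against 12.1, 8.92 and 12.9 CPM in db/db. Its db/db to WT ratio was 0.66 in females and 1.83 in males, a difference of 1.46 on the log2 scale (SE 0.40, edgeR adjusted p = 0.0317). Each value rests on 1 WT library per sex, and both calls were lost in DESeq2, in edgeR with no filter on low counts and in edgeR with an offset for gene length.

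**Figure D5:**
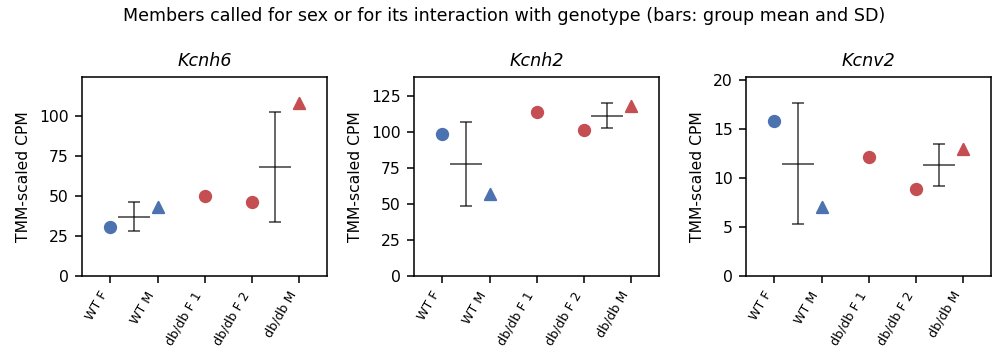
TMM-scaled CPM of Kcnh6, Kcnh2 and Kcnv2 in each library (circles female, triangles male, blue WT, red db/db), with bars for the group mean and SD. The db/db male is the high point of Kcnh6 at 108 CPM, and the WT male is the low point of Kcnh2 at 56.7 CPM and of Kcnv2 at 7.08 CPM.

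Kcnk1 and Kcna5 lie on different chromosomes. Kcna5 lies in a cluster of Kv1 genes on chromosome 6, 100.907 kb from Kcna1, which is 59.617 kb from Kcna6. Kcna1 had 3.40 and 1.52 CPM in WT and 4.99, 4.22 and 4.86 CPM in db/db, and Kcna6 had 1.36 and 0.653 CPM in WT and 2.14, 1.47 and 1.08 CPM in db/db. Neither neighbour was called, the Kcna6 groups overlapped and the Kcna1 groups did not. Kcnj11 lies 3.655 kb from Abcc8, and Kcnj8 lies 16.214 kb from Abcc9, each pair encoding pore and sulfonylurea receptor of ATP-sensitive channels. Kcnip1 and Kcnmb1 overlap on chromosome 11, and 14 of the 60 members carry the opposite strand in the table to that in the GENCODE M21 annotation, among them Kcnip2, Kcng2 and Kcnh2.

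The genes that work with these channels were read from lists chosen with earlier results known. Of 16 partners outside the Kcn family, 12 were tested and 2 were called, both higher in db/db, against 1.03% of all tested genes called. Before adjustment 3 partners were higher and 3 lower at an edgeR p under 0.05, against 12.9% of all tested genes. Lrrc52, a leucine-rich accessory subunit of large-conductance potassium channels, had 10 and 15 counts in WT and 72, 53 and 38 in db/db and rose by a log2 fold change of 2.18 (SE 0.37, edgeR adjusted p = 0.0155). All db/db libraries lay above both WT libraries, while Kcnma1, the large-conductance pore itself, stayed at 2 to 6 counts. Abcc9 and Abcc8, the sulfonylurea receptors that pair with Kcnj11 and Kcnj8, had log2 fold changes of -0.60 and -0.26 (edgeR adjusted p = 0.309 and 0.615). Lrrc55, a relative of Lrrc52, had a log2 fold change of -1.65 (edgeR adjusted p = 0.175).

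Among 12 tested potassium pumps and cotransporters edgeR called 0, and 2 had an unadjusted p under 0.05, 1 in each direction. Among them was Fxyd5, a regulator of the sodium pump (log2 fold change 0.35, edgeR adjusted p = 0.356). Among 13 tested regulators of potassium channel genes or proteins edgeR called 0, and 6 had an unadjusted p under 0.05, 2 higher and 4 lower, against 12.9% of all tested genes. Sgk1, a kinase that increases the surface density of several potassium channels, had 59.6 and 73.2 CPM in WT and 159, 107 and 109 CPM in db/db, with a log2 fold change of 0.91 (SE 0.20, edgeR adjusted p = 0.0568). Prkaa2, a catalytic subunit of AMP-activated kinase, had a log2 fold change of -0.62 (edgeR adjusted p = 0.124).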

How the data were processed

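Poly-A enriched RNA of 5 mouse heart libraries (2 WT, 3 db/db) was read from 1 table of coding genes. HISAT, Bowtie2, DESeq2 and the build GRCm38.p6 stand in the submitters' processing notes with no versions. Per the file headers, the table holds the authors' estimated counts of reads (expected counts), not normalized, and which program made them is not given. As deposited, 91.4% of these values were exactly whole, and 96.7% among the members. The deposited FPKM values were scaled by the authors to gene length and library size. The deposited TPM values were not used in any test. The deposited log2 fold change, q-value and p-value of each gene are the authors' own for db/db against WT.

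Members were chosen by symbol and a minimum of 10 summed counts; the members and all gene lists were chosen with earlier results of these data known. The estimated counts were rounded and tested across all genes with edgeR 4.0.16 (R 4.3.3): TMM factors (0.887 to 1.128), the tool's filter on low counts, robust quasi-likelihood F test and Benjamini-Hochberg adjustment. The 15 members that failed the filter were described only. SE was derived from the F statistic. Sex was tested with genotype in the model, and the interaction with both. Named genes were the called members, the 10 highest by FPKM, the 2 smallest p per class, textbook cardiac channels, and per list the called genes and the 2 smallest p; others were chosen after their values were seen. Promoter windows come from RefSeq (GRCm38.p6). Tests were tried on simulated counts. Alternatives used DESeq2 1.42.0, limma 3.58.1, other scalings and filters, covariates and left-out libraries. A few genes counted in the totals are not reported here by name or in the figures.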

Additional observations from a re-analysis of the deposited data

Results flagged for a closer look

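For 2 members a direct test of the interaction gave an unequal db/db to WT difference in the sexes. That test has 1 library in 3 of its 4 arms and takes its spread from the 2 db/db females, and both calls were lost in 3 of 6 alternatives (DESeq2, no filter on low counts, gene length offset), so the values describe these libraries. For Kcnh2 the male difference exceeded the female one by 0.92 on the log2 scale (edgeR adjusted p = 0.012, higher in db/db in 2 of 2 db/db females and in the 1 db/db male). For Kcnv2 it did so by 1.46 (edgeR adjusted p = 0.0317), with both db/db females below the WT female and the male of db/db above that of WT. No group had the 4 samples needed to look for outlying libraries within a group.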

How the results depend on the processing

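For db/db against WT, 2 members were called, and the same 2 with RLE factors, without the filter on low counts, with at least 1 CPM in 2 libraries, with the gene length offset and with limma-voom. DESeq2 called 3. The count was 1 with library totals, 1 with limma on log2(FPKM + 1), 1 on log2(FPKM + 0.1) and 0 on log2(FPKM + 1) without a filter. It was 7 once sex was a covariate, 5 for the females, 4 with the WT female and db/db male both left out, and 6 with sex and the gene length offset together, an alternative chosen after seeing the data. With the replicate block it was 1 (Kcnk1). Libraries sharing a title number had deviations from their group means correlated at 0.10, -0.13 and -0.18. The deviations of the 2 WT libraries mirror each other by construction, so these values cannot decide whether the numbers pair the libraries. Leaving out each library gave 0 to 2. For sex, 1 member was called, 0 with library totals, 2 without the filter, 1 with the replicate block and 0 to 3 leaving out each library. For the interaction, 2 were called, and 0 with DESeq2, without the filter or with the gene length offset. The cause of these changes was not tested.

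Kcnk1 was called in 18 of 20 alternatives (log2 fold change 1.57 to 4.24) and Kcna5 in 11 of 20 (0.61 to 1.01), positive in all 20 each. Kcng2 was called in 4, Kcnip2 in 3 and Kcnk3 in 2 of 20, each with 1 sign throughout. Kcnh6 for sex was called in 9 of 12 (0.49 to 1.17). Where the lone library of a group remained, it was assumed to vary like the others.

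Over all genes, 129 calls for genotype became 241 with DESeq2, 256 without the filter, 832 with sex, 441 with sex and the length offset, 984 in females alone, 433 without both libraries, 80 with the replicate block, 0 on unfiltered FPKM and 25 to 240 leaving out each library. The 176 calls for sex became 307 with DESeq2, 40 with library totals, 419 without the filter, 30 with the length offset, 568 with the block and 30 to 860 leaving out each library. The 145 interaction calls became 4, 27 and 49 with DESeq2, without the filter and with the length offset. Library totals moved the median of all genes by -0.19, limma on FPKM by -0.15 and -0.17. The share of genotype calls that were higher in db/db was then 41.0%, 50.0% and 52.8%, against 65.1%, and that of sex calls higher in males with library totals 35.0%, against 87.5%. Depth limits the 15 untested members, which had 10 to 36 counts in all.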
